A study of Mus musculus with 4 samples.

Results

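The genes described here carry the chemistry of liver glycogen and its control by protein phosphatase 1 (PP1). They are 9 of the 20642 gene symbols in the deposited table, and they were named in advance of this report by symbol, with earlier results of the same libraries known. *Ppp1r3g* was put in the group because its gene body signal was among those with the largest falls in the knockout, so its values are given as a description with no test. The other 8 genes are *Ppp1r3b*, *Ppp1r3c*, *Ugp2*, *Gyg*, *Gys2*, *Gbe1*, *Pygl* and *Phka2*. A symbol with several transcripts was to be represented by the one with the most promoter-proximal signal, but each of the 9 genes had a single transcript. All 9 were among the 12705 active genes, which had promoter-proximal signal and a mean gene body density over 4 scaled reads per kb.

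The study measured nascent transcription by precision nuclear run-on sequencing (PRO-seq), in which engaged RNA polymerases in isolated nuclei add biotin-labelled nucleotides and the labelled RNA is sequenced with its strand. Nuclei came from livers of C57BL/6 mice on postnatal day 14, with 20000000 nuclei in each run-on, and each library pooled nuclei of several mice. WT1 and WT2 came from Hdac3 +/+ mice, KO1 and KO2 from mice with conditional *Hdac3* alleles (F/F or F/-), and the mice of both genotypes carried Alb-Cre. This transgene is driven by the albumin promoter, so the deletion is aimed at the hepatocyte lineage. In the F/- mice the other cells of the liver also carry 1 null allele.

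Glycogen is the branched glucose store of the liver, filled after feeding and emptied between meals. Glycogen synthase adds glucose units and glycogen phosphorylase removes them, and phosphorylation turns the first enzyme down and the second up. PP1 reverses both phosphorylations, and it is brought to the glycogen particle by targeting subunits of the PPP1R3 family, while phosphorylase kinase does the opposite for phosphorylase.

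In the KO livers, *Ppp1r3g*, the gene that led to the choice of the group, lost most of its nascent transcription signal. Of the other 8 genes, those of the targeting subunits *Ppp1r3b* and *Ppp1r3c*, of liver glycogen synthase (*Gys2*) and of a phosphorylase kinase subunit (*Phka2*) fell in the gene body, by 0.69 to 1.43 on the log2 scale. The genes of the primer protein (*Gyg*) and the branching enzyme (*Gbe1*) did not pass the test in either region. *Ugp2* and *Pygl* lay lower in the gene body but stayed under the fold threshold of 0.6 on the log2 scale. Near the promoter, on the deposited scale, 0 of the 8 genes passed, where 2.2% of active genes passed as lower and 25.8% as higher. The genes of the less abundant targeting subunits *Ppp1r3d* and *Ppp1r3e* rose.

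Reads recovered on genes ranged from 16628518 in KO2 to 26190040 in WT2, and the promoter-proximal windows took 9.38 to 10.3% of them in WT and 13.6 to 17.0% in KO. The gene body signal of *Hdac3* was 582 to 665 scaled reads over the 4 libraries and did not differ past the threshold (log2 fold change -0.14, SE 0.13, adjusted p = 0.413), so the genotypes rest on the labels. A promoter-proximal value here is the signal of the densest 50 bp window near the transcription start site (TSS), and a gene body value is the signal from 1 kb after the TSS to the end of the gene. A gene was called at an adjusted p under 0.05 (limma, Benjamini-Hochberg over the active genes) with an absolute log2 fold change over 0.6. The values of 2 libraries against 2 cannot give an exact two-sided permutation p under 0.333, so the value of every library is given, replicate 1 before replicate 2. All fold changes are KO over WT on the scale of log2(scaled reads + 1).

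Markers of cell types moved with the genotype. Of 8 hepatocyte markers, 6 fell in the gene body, with a median log2 fold change of -1.41, and their summed density was 24136 and 27502 scaled reads per kb in WT1 and WT2 against 10756 and 10569 in KO1 and KO2. Of 7 stellate cell markers, 6 rose, with sums of 192 and 249 in WT against 479 and 484 in KO. Of 7 endothelial markers, 4 rose, with sums of 934 and 995 in WT against 1616 and 1501 in KO. Of the 5 active erythroid markers, 4 fell and 1 rose. Kupffer and myeloid markers summed to 899 and 922 in WT against 1146 and 973 in KO, and lymphocyte markers, of which 2 of 6 rose and 1 fell, to 105 and 140 against 146 and 105. Of the 3 active cholangiocyte markers 1 fell, and the sums of all 6 were 27.8 and 38.1 in WT against 28.6 and 26.9 in KO. Skeletal and cardiac muscle markers summed to at most 6.08 scaled reads per kb in any library and none of the 5 was active. None of these marker lists had a gene at 0 in all libraries. In whole liver, fewer hepatocytes and less transcription per hepatocyte cannot be told apart, and the part of cell composition in the values below was not tested.

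Sequences before the start of genes at the centre of the results are shown first. Per the study's methods, the promoter-proximal windows described below were searched within 500 bp on either side of the TSS. Where the window of each gene lay is not known here, so the printed bases need not hold it. RefSeq promoter sequences of build GRCm38.p6, from 250 bases before to 50 after the TSS, matched 7 of the 9 genes, in 8 windows. *Ppp1r3b* and *Gys2* were not matched. The sequences below are read on the strand of the gene, 5′ to 3′, and are restricted to bases before the TSS that lie outside annotated exons. Capitals mark matches to the motifs searched. *Ppp1r3g* (chr13:35967756-35967852, plus strand) is the gene with the largest difference. *Ppp1r3c* (chr19:36736654-36736754, minus strand) is the targeting subunit gene with lower signal in both regions that has a window. *Pygl* (chr12:70227684-70227833, minus strand) and *Phka2* (chrX:160502012-160502161, plus strand) are the genes of the 9 in which both KO libraries lay below WT in the gene body and above WT near the promoter. This order is not particular to them, and some glycogen genes outside the 9 had it too. Of all active genes, 42.8% had both KO libraries below WT in the gene body, and 61.9% had both above WT near the promoter.
Ppp1r3g: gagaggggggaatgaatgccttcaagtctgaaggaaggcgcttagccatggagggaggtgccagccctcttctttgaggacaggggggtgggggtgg
Ppp1r3c: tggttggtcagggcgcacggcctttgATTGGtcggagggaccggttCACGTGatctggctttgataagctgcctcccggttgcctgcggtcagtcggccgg
Pygl: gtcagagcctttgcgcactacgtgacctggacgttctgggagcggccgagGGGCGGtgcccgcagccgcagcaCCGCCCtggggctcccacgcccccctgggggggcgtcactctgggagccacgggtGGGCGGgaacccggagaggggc
Phka2: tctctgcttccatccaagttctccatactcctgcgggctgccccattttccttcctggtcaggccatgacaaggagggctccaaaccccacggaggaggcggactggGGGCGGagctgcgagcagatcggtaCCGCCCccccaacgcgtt

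The E-box (CACGTG), which is bound by helix-loop-helix factors, was found in the windows of *Ppp1r3c*, 104 bases before the TSS (position -104), and *Gyg*, at position 8, and in 7.15% of all 32851 windows of the table. A GC box (GGGCGG) was found in 6 of the 7 genes, with 4 matches in *Pygl* and 3 in *Phka2*, and in 35.7% of all windows. In *Ppp1r3g* a GC box began at position -54, where the printed stretch ends, and a CCAAT box (CCAAT) at position -18 lay past it. CCAAT boxes were found in 3 of the 7 genes and in 37.4% of all windows. No window of the 7 genes held the TATA box (TATAAA), the forkhead site (TGTTTAC), the cAMP response element (TGACGTCA), the nuclear receptor site TAGGTCA or the DR1 element of paired nuclear receptor sites, which were found in 13.6, 3.65, 1.79, 2.61 and 0.0396% of all windows. Both strands were searched, GC and CCAAT boxes are short and common, and a match is only a run of letters.

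Among the targeting subunits, *Ppp1r3g* showed the largest difference of the whole group. PPP1R3G is a glycogen-targeting subunit of liver known for its control by feeding and fasting. Its GENCODE gene spans chr13:35958839-35970388 on the plus strand, and the measured transcript starts at 35967906, inside that span, with a gene body of 1.483 kb. The gene body value was 196 and 291 scaled reads in WT against 21.2 and 6.07 in KO, which is 171, 291, 20 and 4 recovered reads. Both KO libraries lay far below both WT libraries, and KO2, the library with the fewest reads, was the lowest. The log2 fold change was -4.26 (SE 0.37), the second largest fall (rank 2) among the 12705 active genes, and the value had chosen the gene. The ratio of WT to KO was 16.5, with a 95% interval from 10.9 to 26.0 that covers counting error only (exact conditional binomial, 462 against 24 reads). The spread between the KO libraries was wider, and the log2 fold change was -5.08 without KO1 and -3.43 without KO2.

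The promoter-proximal window of *Ppp1r3g* held 29.8 and 23.0 scaled reads in WT against 2.12 and 3.04 in KO. The KO values are 2 reads in each library, so their size is poorly known, although the groups did not overlap. The ratio of WT to KO was 10.5, with a counting interval from 3.84 to 39.99. The log2 fold change was -2.94 (SE 0.48) and was -3.50 relative to the median of the active genes, which was 0.56 in this region. Its fitted size depended on the pseudocount, from -3.32 with a pseudocount of 0.1 to -1.53 with 10.

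*Ppp1r3b* and *Ppp1r3c* also fell in the gene body. *Ppp1r3b* encodes the GL subunit, the main targeting subunit of the liver, and lies at chr8:35375739-35388139 on the plus strand. Its gene body value was 4813 and 5153 scaled reads in WT against 2352 and 3043 in KO, so both KO libraries were well below both WT libraries. It fell by 0.90 on the log2 scale (SE 0.12, adjusted p = 2.04e-06), a ratio of WT to KO means of 1.85, and the call was lost when all genes were tested without the activity filter (adjusted p = 0.0902). *Ppp1r3c* encodes the PTG subunit (protein targeting to glycogen), expressed in many tissues, and lies at chr19:36731731-36736653 on the minus strand. Gene body values were 784 and 780 in WT against 352 and 326 in KO, with the 2 libraries of each genotype close to each other. It fell by 1.20 on the log2 scale (SE 0.14, adjusted p = 1.83e-07), a ratio of means of 2.30.

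The promoter-proximal values of both genes lay lower in KO as well. For *Ppp1r3b* they were 154 and 160 scaled reads in WT against 78.5 and 120 in KO (log2 fold change -0.69, SE 0.34, adjusted p = 0.103). For *Ppp1r3c* they were 210 and 244 in WT against 110 and 153 in KO (log2 fold change -0.79, SE 0.33, adjusted p = 0.0515). The groups did not overlap for either gene, but neither passed the adjusted test. The values were -1.25 and -1.35 relative to the median of the active genes, but scaling by median of ratios within this region, which sets that median near 0, made both genes called lower (adjusted p = 0.00102 and 0.000248).

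The remaining family members did not move in a common direction. *Ppp1r3d*, whose product is the R6 subunit of many tissues, had gene body values of 17.2 and 35.0 scaled reads in WT against 61.5 and 50.1 in KO and rose (log2 fold change 1.14, SE 0.34, adjusted p = 0.00919). Its promoter-proximal value rose as well, from 49.3 and 64.0 in WT to 144 and 146 in KO (log2 fold change 1.35, SE 0.35, adjusted p = 0.00185), but this call was lost with median-of-ratios scaling within the region (0.79, adjusted p = 0.0568). *Ppp1r3e*, the gene of another targeting subunit, had 9.18 and 8 scaled reads in WT against 25.5 and 36.4 in KO over its 0.942 kb gene body and rose (log2 fold change 1.72, SE 0.42, adjusted p = 0.00205). These gains rest on few reads, from 8 recovered reads in each WT library to 24 in each KO library for *Ppp1r3e*. *Ppp1r3f*, a further family member, had 1395 and 1518 scaled reads in WT against 1063 and 922 in KO, a log2 fold change of -0.56 (SE 0.12, adjusted p = 0.000694) that stayed under the fold threshold. *Ppp1r3a*, the gene of the striated muscle subunit GM, had at most 2.29 scaled reads in any library and was not active.

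Per kb, so that the genes can be compared, the summed gene body density of the family was 870 and 978 scaled reads per kb in WT against 439 and 479 in KO. The sum and the shares include *Ppp1r3g*, which was chosen for its gene body fall (mean 164 in WT against 9.20 in KO). Part of the difference in both was therefore set by that choice. *Ppp1r3b* gave the largest share of this sum in every library, 48.5 and 46.2% in WT and 47.0 and 55.7% in KO. The share of *Ppp1r3g* was 15.2 and 20.1% in WT and 3.26 and 0.854% in KO. *Ppp1r3d* and *Ppp1r3e* were minor in WT, with 0.873 and 1.58% for the former and 1.12 and 0.868% for the latter. In KO, *Ppp1r3d* held 6.19 and 4.61% and *Ppp1r3e* 6.16 and 8.07%, above *Ppp1r3g* in both libraries. *Ppp1r3c* held 17.6 to 23.2% over the 4 libraries and *Ppp1r3f* 10.7 to 16.6%.

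**Figure D1:**
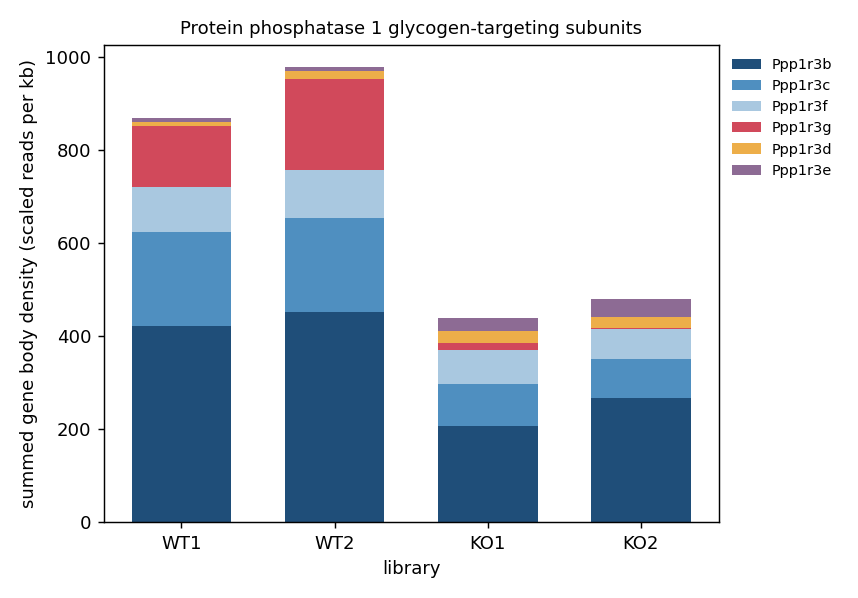
Summed gene body density (scaled reads per kb, y axis from 0) of the active PP1 glycogen-targeting subunit genes in each library (x axis), with 1 colour per gene. The bars reach 870 and 978 in WT and 439 and 479 in KO, *Ppp1r3b* is the largest part of each, and the part of *Ppp1r3g* is 15.2 and 20.1% in WT and 3.26 and 0.854% in KO. *Ppp1r3g* was chosen for its gene body fall, which is part of the difference in height.

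Of the genes of glycogen synthesis, *Gys2* showed the clear change. *Gys2* encodes the liver form of glycogen synthase and lies at chr6:142422613-142473109 on the minus strand. Polymerase signal in the gene body was 4075 and 3789 scaled reads in WT against 1752 and 1209 in KO, with no overlap of the groups. It fell by 1.43 on the log2 scale (SE 0.13, adjusted p = 1.17e-08). The hepatocyte markers had a median of -1.41 and ran from -1.76 to -0.30. That range holds *Gys2* and also the falls of *Ppp1r3b*, *Ppp1r3c* and *Phka2*. The call of *Gys2* was lost without the activity filter (adjusted p = 0.0777). The promoter-proximal value was 63.1 and 48.0 in WT against 39.2 and 47.1 in KO (log2 fold change -0.35, SE 0.38, adjusted p = 0.470), and the lowest WT and the highest KO library nearly met. Relative to the median of the active genes this was -0.91, and it was called lower (adjusted p = 0.0481) only with scaling within the region.

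*Ugp2* encodes UDP-glucose pyrophosphorylase, which makes the sugar donor of glycogen synthase, and lies at chr11:21321138-21371201 on the minus strand. Its gene body value was 6096 and 5229 scaled reads in WT against 4223 and 3858 in KO (log2 fold change -0.48, SE 0.11, adjusted p = 0.00125). The difference passed the adjusted p but was smaller than the fold threshold, so the gene was not called. The promoter-proximal value was 235 and 152 in WT against 115 and 146 in KO (log2 fold change -0.55, SE 0.33, adjusted p = 0.184). The groups did not overlap, although WT2 and KO2 were close, and the gene was called lower (adjusted p = 0.00272) when scaled by median of ratios within the region.

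*Gyg* and *Gbe1* did not change past the threshold in either region. *Gyg* encodes glycogenin, the protein primer of the glycogen particle (chr3:20122084-20155317, minus strand). The gene body held 445 and 445 scaled reads in WT against 453 and 369 in KO, so the groups overlapped (log2 fold change -0.12, SE 0.15, adjusted p = 0.544). Its promoter-proximal value was 64.3 and 52.0 in WT against 52.0 and 91.1 in KO, also overlapping (log2 fold change 0.25, SE 0.37, adjusted p = 0.599), and its direction turned with median-of-ratios scaling within the region (-0.31). *Gbe1* encodes the branching enzyme and has the longest gene body of the group, 254.63 kb (chr16:70313949-70569716, plus strand). The gene body held 3681 and 3191 in WT against 3523 and 3916 in KO, overlapping (log2 fold change 0.12, SE 0.11, adjusted p = 0.441). Its promoter-proximal value was 295 and 277 in WT against 343 and 439 in KO, with both KO libraries above both WT libraries (log2 fold change 0.44, SE 0.31, adjusted p = 0.250), and this was -0.12 relative to the median of the active genes and turned to -0.13 when the region was scaled by its own median of ratios.

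The breakdown gene *Pygl* and the kinase subunit gene *Phka2* had lower KO values in the gene body and higher KO values near the promoter. *Pygl* encodes liver glycogen phosphorylase and lies at chr12:70190811-70231488 on the minus strand. Gene body values were 5111 and 4809 scaled reads in WT against 3315 and 3317 in KO, a clean separation. The log2 fold change of -0.58 (SE 0.11, adjusted p = 0.000107) was just under the fold threshold, so the gene was not called. Its promoter-proximal value was 407 and 304 in WT against 469 and 647 in KO, higher in both KO libraries (log2 fold change 0.64, SE 0.30, adjusted p = 0.0834). Relative to the median of the active genes the promoter-proximal change was 0.08.

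*Phka2* encodes the liver alpha subunit of phosphorylase kinase and lies at chrX:160502166-160598878 on the plus strand. Its gene body value was 2275 and 1811 scaled reads in WT against 1359 and 1165 in KO, with both KO libraries below both WT libraries. It fell by 0.69 on the log2 scale (SE 0.13, adjusted p = 0.000107), just past the fold threshold. Without WT1 the fall was -0.53 and without KO2 it was -0.58, and in both cases the gene was no longer called, nor was it without the activity filter (adjusted p = 0.128). Its promoter-proximal value was 219 and 198 in WT against 281 and 443 in KO, higher in KO (log2 fold change 0.76, SE 0.31, adjusted p = 0.0515), and 0.20 above the median of the active genes.

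**Figure D2:**
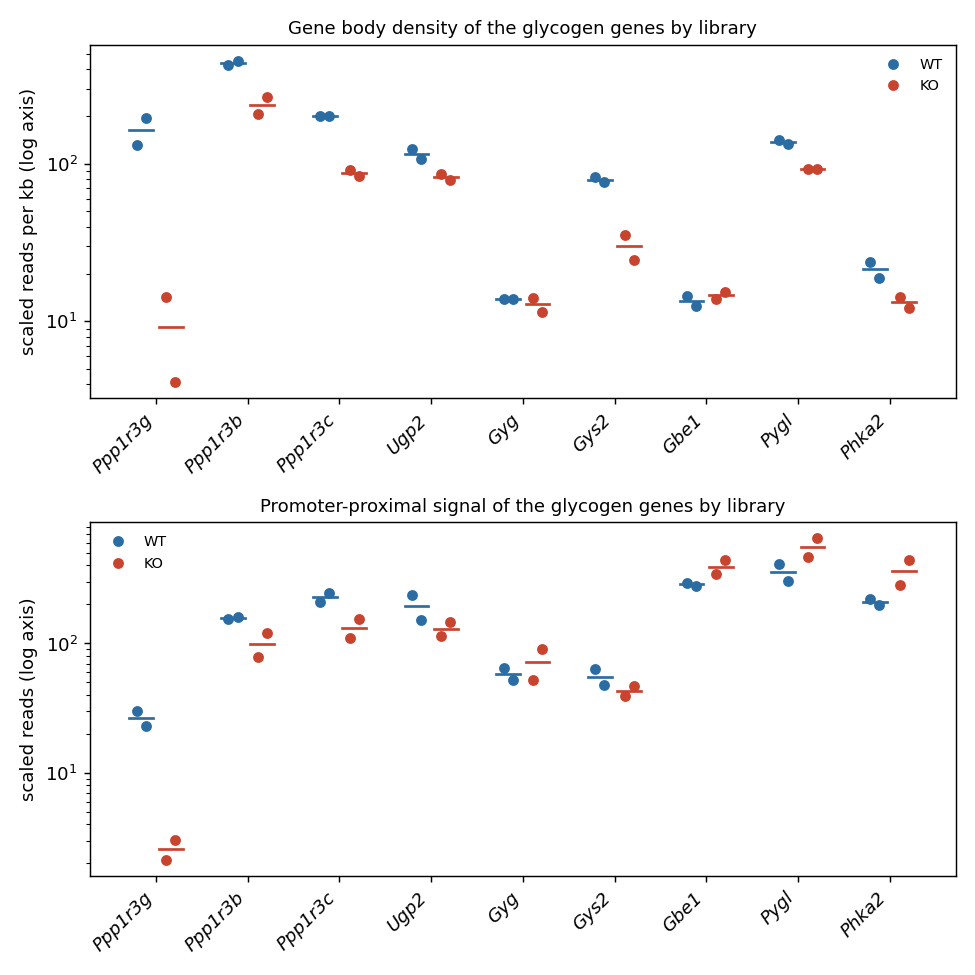
Gene body density (upper panel, scaled reads per kb) and promoter-proximal signal (lower panel, scaled reads in 50 bp) of the 9 genes, both on log axes, with a point per library and a line at the mean of the 2 libraries of each genotype. In the upper panel the KO points lie below the WT points for all but *Gyg* and *Gbe1*, and *Ppp1r3g* is farthest apart (132 and 196 against 14.3 and 4.10 scaled reads per kb). In the lower panel, on the deposited scale, *Gbe1*, *Pygl* and *Phka2* lie higher in KO. With median-of-ratios scaling within the region their log2 fold changes are -0.13, 0.07 and 0.19.

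Over the 8 genes other than *Ppp1r3g*, 4 were called lower in the gene body (*Ppp1r3b*, *Ppp1r3c*, *Gys2* and *Phka2*), where 11.4% of active genes were called lower. None of the 8 was called higher by limma, edgeR or DESeq2, and 0 were higher at an unadjusted p under 0.05, where 10.4% of active genes were called higher. In 6 of the 8, both KO libraries lay below both WT libraries, as in 42.8% of active genes, and in 0 both lay above, as in 27.6%. Their median log2 fold change was -0.63, beside -0.09 over all active genes. In the promoter-proximal region limma called 0 of the 8 in either direction, where 2.2% of active genes were called lower and 25.8% higher. At an unadjusted p under 0.05, 2 were lower (*Ppp1r3b* and *Ppp1r3c*) and 2 were higher (*Pygl* and *Phka2*). DESeq2 called 0 in either direction, and edgeR called 0 lower and 1 higher. Both KO libraries lay below both WT libraries in 4 of the 8, as in 6.72% of active genes, and above in 3, as in 61.9%. Their median promoter-proximal change was -0.05, beside 0.56 over all active genes. Scaling within the region called 4 of the 8 lower (*Ppp1r3b*, *Ppp1r3c*, *Ugp2* and *Gys2*), and over all active genes it changed the calls from 3282 higher and 280 lower to 634 higher and 942 lower.

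**Figure D3:**
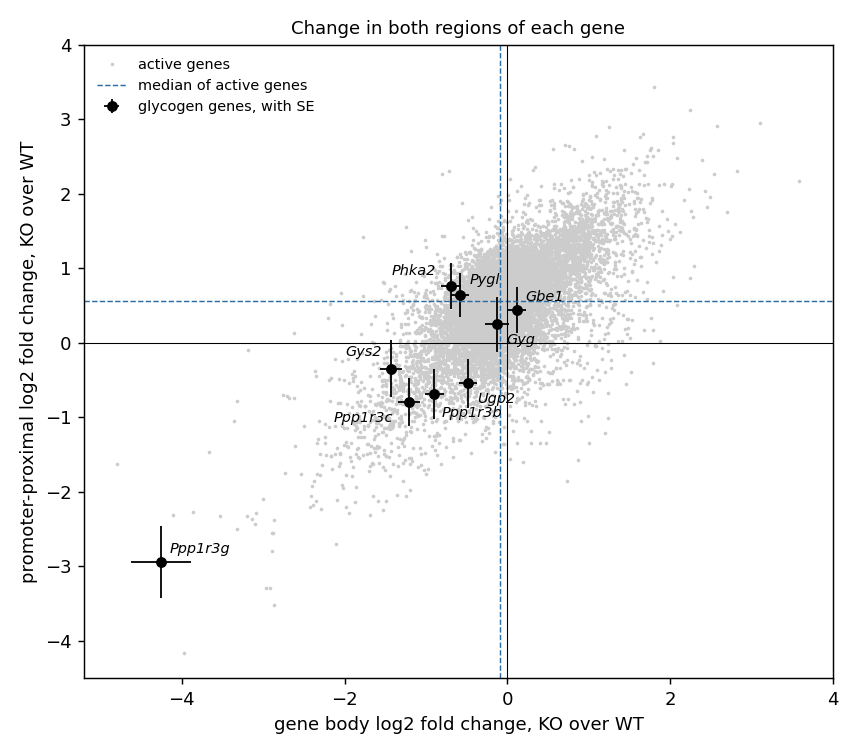
Log2 fold change (KO over WT) in the gene body (x axis) and in the promoter-proximal region (y axis) for the 12705 active genes (grey) and the 9 genes (black, with SE bars), with dashed lines at the medians of the active genes (-0.09 and 0.56) and solid lines at 0. *Ppp1r3g* lies at -4.26 and -2.94, *Gys2*, *Ppp1r3b*, *Ppp1r3c* and *Ugp2* lie below 0 on both axes, and *Pygl* and *Phka2* lie below 0 on the x axis and above 0 on the y axis.

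The pausing index divides promoter-proximal density by gene body density and tells whether both regions of a gene changed equally. *Phka2* had an index of 184 and 209 in WT against 395 and 727 in KO, higher in both KO libraries and called (log2 difference 1.45, SE 0.37, adjusted p = 0.00542). *Pygl* had 57.2 and 45.3 in WT against 101 and 140 in KO, also called higher (log2 difference 1.22, SE 0.39, adjusted p = 0.0280). These were 2 of the 8 genes, where 12.4% of active genes were called higher and 0.519% lower, and the median over all active genes was 0.61. No gene of the 8 was called lower by limma, and 0 were lower at an unadjusted p under 0.05. Both calls were lost with scaling within each region (log2 differences of 0.80 for *Phka2* and 0.57 for *Pygl*). They were also lost with a replicate block (adjusted p = 0.0563 and 0.13) and without WT1, WT2 or KO2. These losses were not particular to *Phka2* and *Pygl*. Among all active genes the pausing calls higher went from 1574 to 6 after median-of-ratios scaling and to 186 with the block. They also became fewer when WT1, WT2 or KO2 was omitted.

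*Gys2* had an index of 15.3 and 12.5 in WT against 22.2 and 38.6 in KO (log2 difference 1.08, SE 0.43, adjusted p = 0.0685), so its groups were apart but the test was not passed. *Ppp1r3b* had the lowest WT index of the 8, 7.28 and 7.08, against 7.61 and 8.99 in KO (log2 difference 0.21, SE 0.46, adjusted p = 0.734), and -0.44 with scaling within each region. *Ppp1r3c* had 20.8 and 24.2 in WT against 24.3 and 36.4 in KO (log2 difference 0.41, SE 0.42, adjusted p = 0.461), and -0.24 with that scaling. *Ugp2* (log2 difference -0.06, SE 0.42) and *Gyg* (0.37, SE 0.39) had overlapping indices. *Gbe1* had the highest WT indices, 408 and 442, against 495 and 571 in KO (log2 difference 0.32, SE 0.36, adjusted p = 0.497). The index of *Ppp1r3g* was 4.51 and 2.34 in WT against 2.97 and 14.8 in KO, and the KO values rest on the few reads given above, with a log2 difference of 2.33 without KO1 and 0.31 without KO2.

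**Figure D4:**
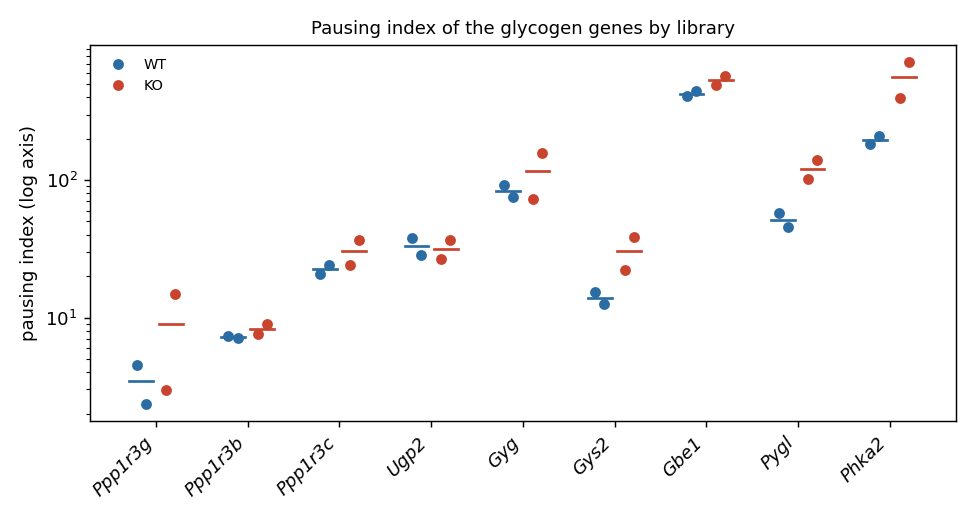
Pausing index (promoter-proximal over gene body density, log axis) of the 9 genes, with a point per library and a line at the mean of each genotype. *Phka2* (184 and 209 in WT, 395 and 727 in KO) and *Pygl* (57.2 and 45.3 in WT, 101 and 140 in KO) are apart, and *Ugp2*, *Gyg* and *Ppp1r3g* overlap.

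Ordered by gene body density in WT, *Ppp1r3b* was highest with 437 ± 21.1 scaled reads per kb (mean ± SD, n = 2 libraries), followed by *Ppp1r3c* with 202, *Ppp1r3g* with 164 and *Pygl* with 138. *Ppp1r3g* and *Pygl* could not be ordered, since their libraries overlapped. *Ugp2* followed with 116, *Gys2* with 79.4 and *Phka2* with 21.4, each apart from the next, and *Gyg* with 13.9 and *Gbe1* with 13.5 overlapped. In KO, *Ppp1r3b* was still highest with 237 ± 42.9, and *Pygl* with 92.5 came before *Ppp1r3c* with 87.6 and *Ugp2* with 82.9, of which the last 2 overlapped. *Gys2* had 29.9. *Gbe1*, *Phka2*, *Gyg* and *Ppp1r3g* closed the order with 14.6, 13.2, 12.8 and 9.20, each overlapping with its neighbour in the order.

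The wider list of glycogen genes held 46 symbols, of which 44 were active, and *Ppp1r3a* and *Phkg1* were not. Of the 35 active genes of the list outside the 9, 6 fell and 3 rose in the gene body, beside 11.4% of all active genes called lower and 10.4% called higher. In the promoter-proximal region 3 were called lower and 4 higher, beside 2.2% and 25.8% of all active genes. The median gene body change of the 35 was -0.23, beside -0.09 over all active genes. Of the 3 PP1 catalytic subunit genes (*Ppp1ca*, *Ppp1cb* and *Ppp1cc*), *Ppp1cc* rose near the promoter (log2 fold change 1.06, SE 0.29, adjusted p = 0.00339), with a gene body change of -0.01 (adjusted p = 0.954). *Phka1*, the muscle-type alpha subunit gene of phosphorylase kinase, was called higher near the promoter (log2 fold change 0.77, SE 0.30, adjusted p = 0.0432), and its gene body change of -0.49 was under the fold threshold. The promoter-proximal calls of *Ppp1cc*, *Phka1* and, further on, *Prkaa1* were lost with median-of-ratios scaling within the region (log2 fold changes of 0.49, 0.20 and 0.64), while the 9 gene body calls of the list outside the members were kept under this scaling. *Stbd1*, whose product binds glycogen and sorts it to lysosomes, had 263 and 337 in WT against 158 and 197 in KO and fell (log2 fold change -0.75, SE 0.18, adjusted p = 0.00178).

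*Prkaa2*, which encodes a catalytic subunit of the energy sensor AMPK, had 1986 and 1569 scaled gene body reads in WT against 833 and 858 in KO and fell (log2 fold change -1.06, SE 0.13, adjusted p = 3.75e-07). The other catalytic subunit gene, *Prkaa1*, was called higher near the promoter (log2 fold change 1.21, SE 0.31, adjusted p = 0.00181) and not in the gene body (0.17, adjusted p = 0.265). Among the genes of glucose entry and exit, *G6pc* (glucose-6-phosphatase) had 24157 and 25759 in WT against 8932 and 7742 in KO and fell (log2 fold change -1.58, SE 0.12, adjusted p = 2.86e-10). *Slc37a4*, the transporter that feeds it, had 1263 and 1002 in WT against 282 and 345 in KO and fell (log2 fold change -1.85, SE 0.15, adjusted p = 8.88e-10). *Gckr* had 2183 and 2158 in WT against 914 and 919 in KO and fell (log2 fold change -1.24, SE 0.11, adjusted p = 6.81e-09).

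By Euclidean distance over the 4 centred log2 gene body values, the 3 genes most like *Ppp1r3g* among 11926 candidates were *H19* (distance 0.32), *Sds* (0.999) and *Igf2* (1.001). *H19*, an imprinted non-coding RNA gene, had 2411 and 3837 scaled reads in WT against 319 and 115 in KO. Like *Sds* and *Igf2*, it shared with *Ppp1r3g* the order of all 4 libraries, with WT2 highest and KO2 lowest. *Igf2*, the growth factor gene beside it, had 1711, 3352, 382 and 149, and *Sds*, which encodes serine dehydratase, had 4859, 6286, 349 and 290. These genes were picked from many by their pattern over 4 libraries, so the likeness is a description.

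No gene of the same strand ended within 20 kb upstream of *Ppp1r3g*, *Ppp1r3b*, *Ppp1r3c*, *Ugp2*, *Gyg* or *Gbe1* in the annotation (GENCODE vM21, GRCm38). *Ldhb* ended 17140 bp upstream of *Gys2* and had 33.0 to 49.9 scaled gene body reads, and *Trim9* ended 13045 bp upstream of *Pygl* with 2.29 to 13.7, both far below the signal of the gene they precede. *Adgrg2* ended 4096 bp upstream of *Phka2* and was not analysed here. The antisense gene *Gm30127* overlaps *Ppp1r3g* and was not analysed here, and the strand kept by PRO-seq separates the reads of such pairs.

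The deposited list of 2282 enhancers, made from the libraries together and without values of single libraries, named a member as the closest gene for 3 of the 9, where 10.9% of active genes were named. *Ppp1r3b* was the closest gene of 3 enhancers, of which 1 lay within 50 kb, at chr8:35414536-35422838 and 38795 bp away, with 2 centres, 1 of them also in FANTOM5. *Ppp1r3c* was the closest gene of 1 enhancer, 29904 bp away at chr19:36704668-36706700. *Ugp2* was the closest gene of 1, 53542 bp away at chr11:21424421-21428796. No enhancer of the list had *Ppp1r3g*, *Gys2*, *Gyg*, *Gbe1*, *Pygl* or *Phka2* as its closest gene. The list also links enhancers to genes through chromatin contacts collected in 4DGenome, which include tissues other than liver. By these links 11 enhancers named *Gbe1*, 11 *Ugp2*, 4 *Ppp1r3c*, 3 *Gyg*, 3 *Pygl* and 2 *Gys2*. *Ppp1r3g*, *Ppp1r3b* and *Phka2* had 0. The share of active genes with such links was not computed.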

How the data were processed

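PRO-seq was done on 2 WT and 2 *Hdac3* KO libraries of mouse liver. Per the labels, the authors used cutadapt and Bowtie2 and the build mm10, and per the study's methods reads with a mapping quality under 10 were removed and the rest counted with NRSA. The deposited promoter-proximal and gene body values are signal, read counts that the authors scaled by 1.15 (WT1), 1 (WT2), 1.06 (KO1) and 1.52 (KO2), and the deposited densities are this signal per bp. Dividing by the factor gave whole reads for 100% of 41640 values per library, within 0.1 read. The deposited enhancer list holds positions, lengths and counts of centres and linked genes, made by the authors from the libraries together.

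Log2(scaled reads + 1) was compared over 12705 active genes with limma 3.58.1 in R 4.3.3 (trend, empirical Bayes, 2 against 2, no block), with Benjamini-Hochberg adjustment over these genes and calls as given above (adjusted p under 0.05, fold threshold 0.6 on the log2 scale). The pausing index was compared on its log2 values in place of the stratified count test of the study. The count tests edgeR 4.0.16 and DESeq2 1.42.0 on the recovered reads were alternatives, and in the gene body edgeR called 1329 genes higher and 1454 lower, and near the promoter 3251 and 265. Other alternatives were the pseudocount (0.1 and 10), no activity filter, the scaling, the transcript, the fold threshold, blocking on the replicate number and omission of each library. Tables and motifs were handled in Python 3.11.15 with numpy 2.4.6 and pandas 2.3.3, and plots in matplotlib 3.10.9.

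The 9 genes and all lists were chosen with earlier results of these data known. The genes named are the 9, every measured *Ppp1r3* gene, the wider list's genes called in the gene body (some of them are not reported here), the 3 genes closest in pattern to *Ppp1r3g*, neighbours within 20 kb and enhancers with a member as closest gene. *Ppp1cc*, *Phka1* and *Prkaa1* fall outside this rule and were named after their values were seen. Whether libraries of the same number pair was checked by the correlation of their deviations from the genotype means over genes, which was 0.02 in the gene body and -0.11 in the promoter-proximal region, so no pairing was used. Per the study's methods, the libraries of a genotype were biological replicates from separate groups of mice with pooled nuclei. The p-values therefore rest on the spread between such pools and not between single mice. The empirical Bayes step of limma drew the variance of each gene to a trend over all active genes. The SE and p-value of a gene thus measure mostly this shared spread, above all in the promoter-proximal region and the pausing index, and little of the gene's own.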

Additional observations from a re-analysis of the deposited data

How the results depend on the processing

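The gene body calls of the 8 tested genes (4 lower, 0 higher) did not move by more than 1.5 times under any alternative but the fit without the activity filter, which left 1 lower (*Ppp1r3c*), with *Ppp1r3b*, *Gys2* and *Phka2* lost. Over all genes that fit called 589 of 20642 lower in the gene body, where 1449 of 12705 were called lower before. It also left 0 pausing calls, among the 8 genes and among all 18353 genes it tested for pausing. With each library left out in turn, *Phka2* lost its gene body call without WT1 or KO2, and *Pygl* gained one without WT2 (-0.62). Promoter-proximal calls depended most on the scaling: 4 genes were lower with median-of-ratios and 4 with TMM scaling within the region, where 0 were before. *Phka2* was the 1 gene called higher with edgeR and the 1 with a pseudocount of 10. Pausing calls, 2 before, fell to 0 with either scaling within the region and to 0 with the replicate block. Over all active genes, pausing calls were 6 higher and 11 lower with median-of-ratios scaling and 8 and 13 with TMM scaling. Pausing calls and promoter-proximal calls higher also changed with the library left out, among the 8 genes and over all active genes. The replicate block changed no other call of the 8 genes. Over all active genes it gave 1772 higher and 177 lower promoter-proximal calls (3282 and 280 without it) and 186 and 12 pausing calls (1574 and 66). Crossing the replicate numbers, tried after the data were seen, gave 2 higher and 2 lower among the 8 and 4861 and 399 over all active genes. TMM scaling gave 638 and 949, and no activity filter 0 and 0. The cause of these changes was not tested, except that the scaling within a region sets the median change near 0 by construction. Of the single-gene values of the 8 under the alternatives, 304 kept their side of the threshold, 21 gained a call and 19 lost one. No called value changed sign, but 17 values that were not called did, of *Gyg*, *Gbe1*, *Ppp1r3b*, *Ppp1r3c* and *Ugp2*, with scaling within the region or a library left out. Of the 43 values of *Ppp1r3g*, 6 (all near the promoter, -3.42 to -1.53) moved by more than the spread between replicates, and its gene body change ranged from -5.08 to -3.43 with a library left out.

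With 2 libraries per genotype and the lowest read number in KO2, the promoter-proximal values, and most of all the 2 reads of *Ppp1r3g* in each KO library, limit what differences can be seen. With a library left out, the lone library of its genotype was taken to vary like the other pair.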
